A study of Mus musculus with 11 samples.

Results

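Most of the genes described here encode surface receptors of activated myeloid cells and factors that keep neutrophils alive. They are Csf3 (G-CSF) and its receptor Csf3r, the formyl peptide receptors Fpr1 and Fpr2, the immunoglobulin-like receptors Trem1 and Trem3, the C-type lectin receptors Clec4d and Clec4e, and the membrane protein Mcemp1. The remaining gene, Hdc, encodes the enzyme that makes histamine. All were picked by gene symbol, with earlier results of these data known, and are 10 of the 55421 genes in the count table. Each name matched 1 row of that table.

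The hearts of 11 female C57BL/6J mice, a wild-type inbred strain, aged 8 weeks, were profiled by RNA sequencing 3 days after surgery. Permanent ligation of the left anterior descending (LAD) coronary artery caused a myocardial infarction (MI) in 8 mice, and their tissue is labelled as infarct border zone (the text of the study names the infarct as well). GI254023X, which blocks the metalloprotease ADAM10 through a hydroxamate group, was delivered at 100 mg/kg to 4 of these mice by an osmotic minipump that had not been primed (A10i), and the remaining 4 were given its solvent (DMSO). A sham operation with DMSO was done in 3 mice, whose samples were healthy heart, so that surgery and kind of tissue cannot be told apart in comparisons with sham. The labels name no transgene, and each library came from 1 mouse. Myh6, the cardiomyocyte myosin that marks heart muscle, averaged 38160 counts in each 1000000 (CPM) in sham, 16830 in DMSO and 21980 with A10i. Library totals lay between 25538009 and 29511768 counts in sham, 22651265 and 29004048 in DMSO, and 21702623 and 25695213 in A10i mice.

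G-CSF drives the production of neutrophils in the bone marrow and their release into the blood, and its receptor signals through JAK kinases and STAT3 to prolong the life of the cell. Formyl peptide receptors sense peptides released by bacteria and by the mitochondria of damaged cells. Trem1, Trem3, Clec4d and Clec4e have little signalling tail of their own. They rely on the ITAM adaptors DAP12 (Tyrobp) or the Fc receptor gamma chain (Fcer1g), which recruit the kinase Syk. Neutrophils carry most of these proteins, but monocytes and macrophages carry several of them too, and Hdc is also a well-known product of mast cells and basophils.

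After MI with DMSO, all 9 genes that passed the filter on low counts rose against sham, from 3.44-fold for Hdc to 151-fold for Clec4e in ratios of group means (Trem1, at 0 in sham, has only a lower bound). The Clec4e value rested on 4 sham counts, with an exact 95% interval for the pooled ratio of 55.9 to 528.5 (counting error only), and its rank among the genes was not tested. With A10i, 7 of 8 tested genes rose against sham. At the same edgeR adjusted p under 0.01, 12.9% of all genes tested rose in DMSO and 13.7% in A10i. In A10i mice, the mean levels of all 10 genes were below those of DMSO mice, at 20.97% of the DMSO mean for Trem3 to 71.3% for Hdc among the 9 genes other than Csf3. None of the 8 tested between A10i and DMSO passed an adjusted p-value of 0.01 in edgeR's quasi-likelihood test, the main test. Of all 16792 genes tested there, 0 passed. At an unadjusted p-value under 0.05 in that test, 7 of 8 were lower, beside 6.73% of all genes. DESeq2 called 4 of the 10, beside 0.714% of all genes called lower.

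Levels are CPM after TMM scaling over the 11 libraries, and the error of a group mean is the SD over mice. In a bulk sample, fewer cells of a type and less RNA per cell cannot be told apart. The plot of levels by mouse shows the value of each mouse.

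**Figure D1:**
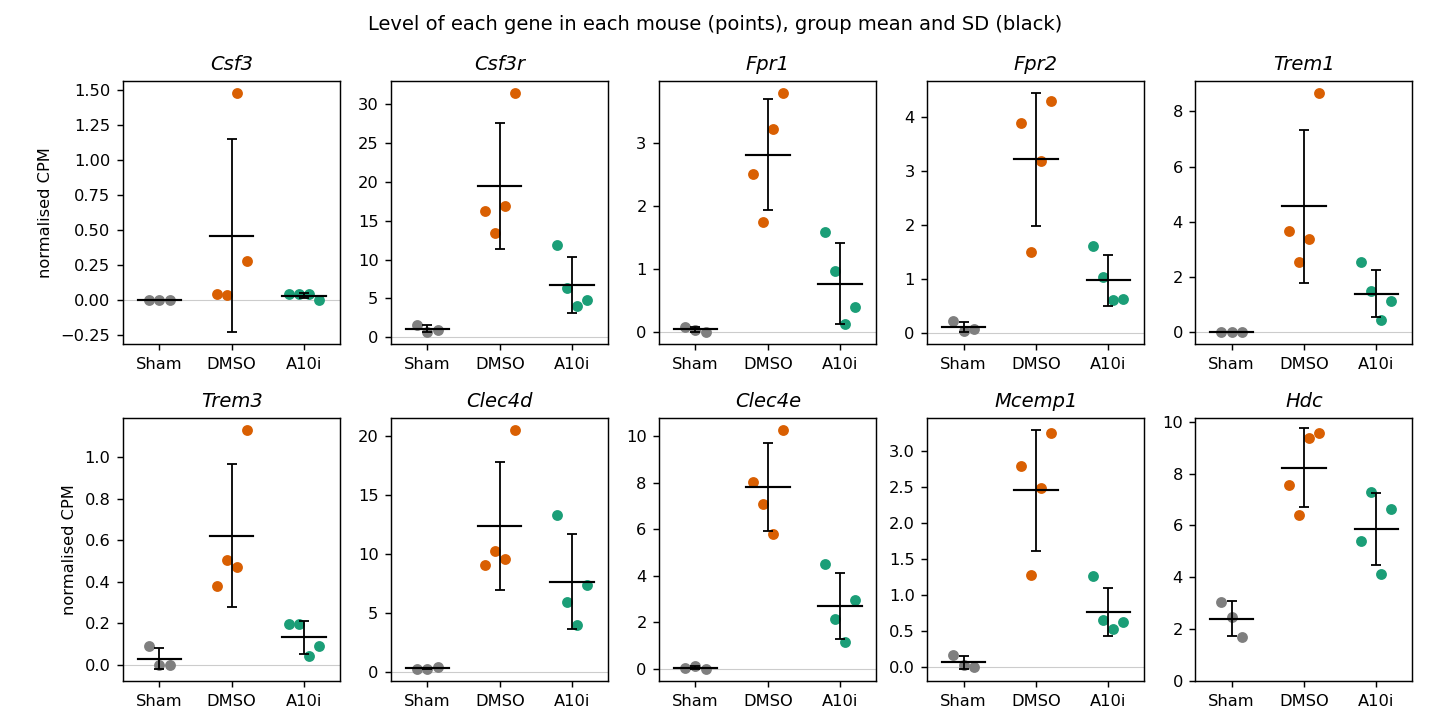
Normalised CPM (linear axis, a separate scale for each gene) of the 10 genes in the 3 sham, 4 DMSO and 4 A10i mice. Points are mice, the black line is the group mean and the bar its SD (where the SD exceeds the mean the bar runs below 0, and no mouse does). The DMSO points sit above all sham points for every gene, though for Csf3 by only 1 count in A105 and A127. For Csf3r, Fpr1, Trem1, Trem3, Clec4e and Mcemp1 all 4 A10i points sit below all 4 DMSO points.

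Csf3, the ligand, had few counts in these hearts. It had 0 counts in each sham mouse, which allows up to 3 counts per library. Among DMSO mice it had 44 counts in A128, 7 in A129 and 1 each in A105 and A127, and among A10i mice 1 count each in A116, A117 and A119 and 0 in A120. Mouse A128 alone held 83.0% of the DMSO counts of Csf3. The mean level was 0.456 ± 0.689 CPM (SD, n = 4) in DMSO and 0.0299 ± 0.0200 CPM (SD, n = 4) in A10i mice, and the groups overlapped. The pooled A10i to DMSO ratio was 0.0630, with an exact 95% interval for counting error only of 0.0126 to 0.195. With all 4 DMSO mice the level was at least 3.78-fold higher than in sham against the floor of 3 counts per library, but without A128 the DMSO mean of 0.116 CPM was under the floor of 0.121 CPM. A10i and sham were both at or under the floor. Csf3 failed edgeR's filter in every comparison. DESeq2 called it in DMSO against sham (adjusted p = 0.00272), and without A128 gave no adjusted value and an unadjusted p of 0.0667. Between A10i and DMSO its unadjusted p was 0.00394, and 0.196 without A128, with no adjusted value in either.

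Csf3r (chr4:126024550-126044440, mm10), the G-CSF receptor, was far more abundant than its ligand. Its levels were 1.61, 0.742 and 0.965 CPM in the sham mice. DMSO mice reached 16.3 CPM in A105, 13.4 in A127, 16.9 in A128 and 31.4 in A129. A10i mice reached 11.9 CPM in A116, 6.29 in A117, 4.01 in A119 and 4.79 in A120. No 2 groups overlapped, and DMSO mouse A129 and A10i mouse A116 were the highest of their groups. The log2 fold change was 4.15 ± 0.397 (SE) in DMSO against sham (edgeR adjusted p = 0.000206) and 2.63 ± 0.450 (SE) in A10i against sham (edgeR adjusted p = 0.00240). In A10i mice the mean was 34.6% of that in DMSO mice, with a log2 fold change of -1.52 ± 0.368 (SE) and an edgeR adjusted p of 0.132. Mean log2 CPM differed by -1.57, with an exact two-sided permutation p of 0.0286 (n = 4 each), the smallest that 70 splits allow. Of its 50-base stretches, 10.5% also occur in transcripts of 190 other genes.

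Across the 9 genes tested in DMSO against sham, all 9 rose at an edgeR adjusted p under 0.01, where 12.9% of all 17117 genes tested rose. The median log2 fold change of the 9 was 5.08, and that of all genes tested was 0.00211. All 9 lay above sham in every DMSO mouse, which 25.6% of the genes tested did. Csf3, which was not tested, also did, but with 1 count each in A105 and A127, under the floor of 3 counts. In A10i against sham, 7 of 8 rose, beside 13.7% of 16971 genes, and all 8 lay above sham in every A10i mouse, beside 24.8%. Csf3 and Trem3, which were not tested there, overlapped with sham. The median log2 fold change of the 8 was 3.78, or 3.49 with Trem1 at its lower bound, beside -0.00536 for all genes. The count in A10i against sham rested on having all 3 sham mice: without S2 or without S3 only 2 genes passed, Clec4d and Clec4e, and without S1 it was 6. The genes lost without S2 or S3 stayed higher than sham, with edgeR adjusted p-values of 0.0110 to 0.0210. Fitted changes of genes with few sham counts also moved by over 1.5-fold: without S1, the log2 fold changes in DMSO and A10i became 6.86 and 5.01 for Fpr1, 5.67 and 3.97 for Fpr2, and 6.66 and 5.001 for Mcemp1, and that of Trem3 in DMSO became 7.06, while without S2 those of Clec4e became 8.24 and 6.70. DMSO and A10i share the 3 sham mice, so that both comparisons move with the same controls.

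Fpr1 (chr17:17876471-17883940) and Fpr2 (chr17:17887824-17893952) lie next to each other, 3883 bases apart, and encode chemotactic receptors. Fpr1 had 2, 1 and 0 counts in sham mice. Its levels were 2.497, 1.75, 3.22 and 3.79 CPM in DMSO mice A105, A127, A128 and A129. In A10i mice they were 1.58 CPM in A116, 0.965 in A117, 0.124 in A119 and 0.403 in A120, all under the lowest DMSO mouse. With 3 sham counts in all, the pooled ratio to sham was 69.7 in DMSO (exact 95% interval 23.6 to 339.7, counting error only) and 19.7 in A10i (6.48 to 97.4). Against sham, Fpr1 passed the test in DMSO (edgeR adjusted p = 0.000140) and missed it in A10i (edgeR adjusted p = 0.0165; DESeq2 adjusted p = 0.000960). The A10i mean was 27.3% of the DMSO mean (log2 fold change -1.84 ± 0.534 SE, edgeR adjusted p = 0.183; exact permutation p = 0.0286, two-sided, n = 4 each).

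Fpr2 reached 0.218, 0.0371 and 0.0804 CPM in sham mice. DMSO mice had 3.89, 1.51, 3.19 and 4.30 CPM, and A10i mice had 1.62, 1.04, 0.621 and 0.627 CPM, in the order used above. A10i mouse A116 lay above DMSO mouse A127, so the groups overlapped. The mean with A10i was 30.3% of that with DMSO, the log2 fold change was -1.695 ± 0.3905 (SE) with an edgeR adjusted p of 0.1175, and the exact permutation p was 0.0571 (two-sided, n = 4 each). Against sham the log2 fold change was 4.83 ± 0.566 (SE) in DMSO and 3.14 ± 0.591 (SE) in A10i, both past the threshold. Of the 50-base stretches of Fpr2, 31.5% also occur in transcripts of Fpr1, Fpr3 or the pseudogene Gm5966, so its counts are less certain than those of Fpr1, of which 0.0784% do. Fpr3 itself had 0 or 1 counts per library.

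Trem1 (chr17:48232768-48246924) amplifies inflammatory signals of neutrophils and monocytes through DAP12, and Trem3 lies 852 bases beyond its end. Trem1 had 0 counts in all 3 sham mice. It reached 3.68, 2.55, 3.39 and 8.67 CPM in DMSO mice A105, A127, A128 and A129, and 2.53, 1.51, 0.455 and 1.12 CPM in A10i mice A116, A117, A119 and A120. The highest A10i mouse and the lowest DMSO mouse were nearly level, without overlap. Against the floor of 3 counts per sham library, Trem1 was at least 37.9-fold higher in DMSO and at least 11.6-fold higher in A10i mice (edgeR adjusted p = 0.00106 and 0.00380). The A10i mean was 30.7% of the DMSO mean (log2 fold change -1.69 ± 0.509 SE, edgeR adjusted p = 0.196; exact permutation p = 0.0286, two-sided, n = 4 each).

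Trem3 was the scarcest receptor, with 2, 0 and 0 counts in sham, 9, 15, 14 and 29 counts in DMSO and 5, 5, 1 and 2 counts in A10i mice. Its mean level was 0.622 ± 0.344 CPM (SD, n = 4) in DMSO and 0.130 ± 0.0775 CPM (SD, n = 4) in A10i mice, without overlap. The pooled ratio of A10i to DMSO was 0.216 (exact 95% interval 0.109 to 0.395, counting error only), and the exact permutation p for log2 CPM was 0.0286 (two-sided, n = 4 each). It rose in DMSO against sham (edgeR adjusted p = 0.00398), but without S2 or S3 the adjusted p was 0.0219 or 0.0213. In both comparisons with A10i it failed edgeR's filter, and DESeq2 gave an adjusted p of 0.0281 between A10i and DMSO.

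Clec4d (MCL, also called Dectin-3, chr6:123262111-123275265) and Clec4e (Mincle, chr6:123281789-123289870) bind glycolipids of microbes, and Clec4e also binds a nuclear protein released by dying cells. The genes lie 6523 bases apart on opposite strands. RefSeq (GRCm38.p6) held promoters of 8 of the 10 genes, all but Csf3 and Trem3. The 250 bases before the start of both lectin receptors are shown, because these neighbours differed most among the 3 neighbouring pairs, with matches to the core motifs of the myeloid factors PU.1 (GAGGAA) and C/EBP (TTNNGNAA), on either strand, in capitals. The window of Clec4d is chr6:123261857-123262106 on the plus strand and that of Clec4e is chr6:123289872-123290121 on the minus strand.
Clec4d: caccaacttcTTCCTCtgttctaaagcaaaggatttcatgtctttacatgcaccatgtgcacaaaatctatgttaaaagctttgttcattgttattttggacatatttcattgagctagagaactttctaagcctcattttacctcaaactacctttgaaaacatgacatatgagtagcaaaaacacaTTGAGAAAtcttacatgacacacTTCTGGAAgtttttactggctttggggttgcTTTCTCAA
Clec4e: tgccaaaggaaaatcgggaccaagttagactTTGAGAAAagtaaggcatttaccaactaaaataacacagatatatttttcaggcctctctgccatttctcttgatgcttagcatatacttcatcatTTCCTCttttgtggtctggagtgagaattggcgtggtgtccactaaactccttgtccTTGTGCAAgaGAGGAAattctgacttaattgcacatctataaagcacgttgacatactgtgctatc

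Both windows held matches to both motifs, and none of the matches overlapped. Among the 8 promoters, 5 held GAGGAA (Csf3r, Clec4d, Clec4e, Fpr2 and Trem1), beside 23.3% of all 32851 promoters of the same length, and 5 held TTNNGNAA (Clec4d, Clec4e, Fpr1, Fpr2 and Trem1), beside 36.8%. The AP-1 motif TGANTCA was in 0 of the 8 and in 6.75% of all promoters. These matches describe letters in a window and carry no measurement of binding.

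Clec4d had 0.261, 0.260 and 0.362 CPM in sham mice. DMSO mice had 9.06 CPM in A105, 10.2 in A127, 9.56 in A128 and 20.5 in A129. A10i mice had 13.2 CPM in A116, 5.95 in A117, 3.97 in A119 and 7.39 in A120, and A116 lay above all DMSO mice but A129. The A10i mean was 61.9% of the DMSO mean (log2 fold change -0.68 ± 0.379 SE, edgeR unadjusted p = 0.103, adjusted p = 0.471; exact permutation p = 0.171, two-sided, n = 4 each). It rose 41.9-fold with DMSO and 25.95-fold with A10i against sham in ratios of means (edgeR adjusted p = 0.000107 and 0.000406).

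Clec4e had 1, 3 and 0 counts in sham. DMSO mice reached 8.04 CPM in A105, 7.06 in A127, 5.80 in A128 and 10.3 in A129, and A10i mice reached 4.505 CPM in A116, 2.12 in A117, 1.16 in A119 and 2.95 in A120. Every A10i mouse was under every DMSO mouse. The A10i mean was 34.5% of the DMSO mean (log2 fold change -1.53 ± 0.352 SE, edgeR adjusted p = 0.119, DESeq2 adjusted p = 0.00147; exact permutation p = 0.0286, two-sided, n = 4 each). Against sham, the log2 fold change was 7.06 ± 0.464 (SE) in DMSO and 5.53 ± 0.755 (SE) in A10i, both past the threshold.

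The count of Clec4e relative to Clec4d was lower in A10i mice. For each count of Clec4d there were 0.888, 0.689, 0.607 and 0.501 counts of Clec4e in DMSO mice A105, A127, A128 and A129, and 0.340, 0.357, 0.292 and 0.400 in A10i mice A116, A117, A119 and A120. The groups did not overlap. The mean log2 ratio was -0.61 ± 0.346 (SD, n = 4) in DMSO and -1.53 ± 0.184 (SD, n = 4) in A10i, a difference of -0.92 (exact permutation p = 0.0286, two-sided, and 0.0857 after Benjamini-Hochberg adjustment over 3 pairs). Such a ratio does not depend on the depth or scaling of a library. The pair was compared after its values had been seen, with the other two neighbouring pairs for the same reason. Fpr1 to Fpr2 differed by -0.58 (exact permutation p = 0.371, adjusted p = 0.371) and Trem3 to Trem1 by -0.36 (exact permutation p = 0.171, adjusted p = 0.257), and both overlapped. The Fpr difference was -0.1025 without A10i mouse A119, which had 3 counts of Fpr1 and 15 of Fpr2.

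**Figure D2:**
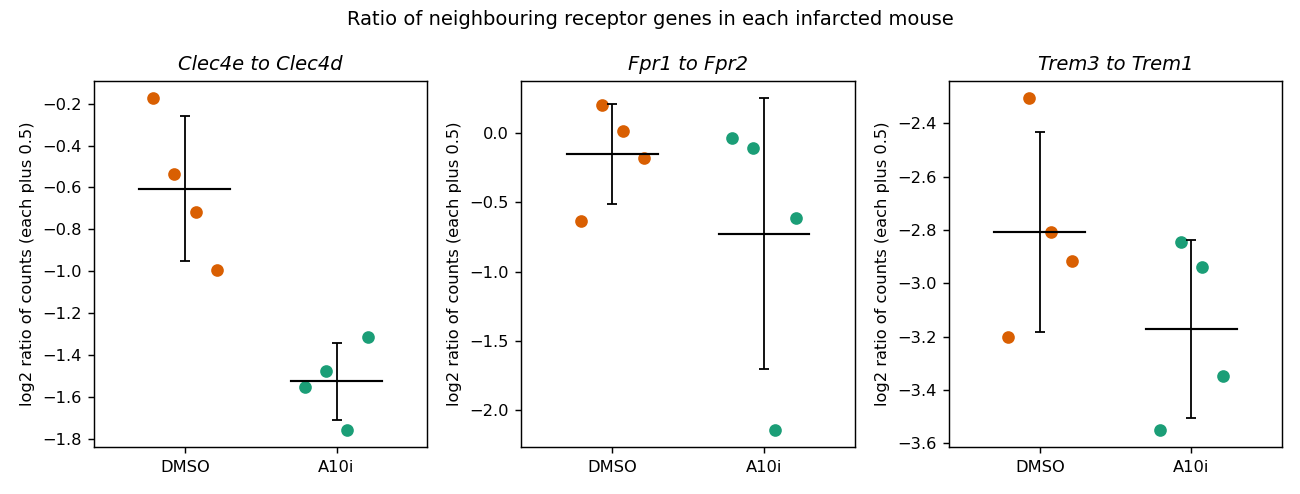
The log2 ratio of raw counts, each plus 0.5, for 3 pairs of neighbouring receptor genes in the 4 DMSO and 4 A10i mice. Points are mice, and the black line and bar are the mean and SD. The Clec4e to Clec4d ratio has a mean of -0.61 in DMSO and -1.53 in A10i with no shared range, and the other pairs overlap.

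Mcemp1 (chr8:3665754-3669259), a single-pass membrane protein of mast cells, monocytes and neutrophils, had 0.174, 0.0371 and 0 CPM in sham mice. Its level was 2.79, 1.28, 2.48 and 3.24 CPM in DMSO mice and 1.26, 0.656, 0.538 and 0.627 CPM in A10i mice, in the same order as above. The groups did not overlap, but A116 and A127 were nearly level. The A10i mean was 31.5% of the DMSO mean (log2 fold change -1.64 ± 0.353 SE, edgeR adjusted p = 0.0977, the smallest among the 8 genes tested; DESeq2 adjusted p = 0.00195; exact permutation p = 0.0286, two-sided, n = 4 each). It rose in both infarcted groups against sham, with log2 fold changes of 5.08 ± 0.637 (SE) in DMSO and 3.44 ± 0.680 (SE) in A10i. With 5 sham counts in all, the pooled ratio to sham was 35.9 in DMSO (exact 95% interval 15.2 to 111.4, counting error only) and 11.6 in A10i (4.77 to 36.9).

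Hdc (chr2:126593667-126619299), histidine decarboxylase, was the only gene of the 10 with at least 42 counts in every sham library. Its levels were 3.05, 2.45 and 1.69 CPM in sham mice, 7.58, 6.38, 9.39 and 9.57 CPM in DMSO mice and 5.41, 7.30, 4.14 and 6.63 CPM in A10i mice. Both infarcted groups lay above sham, and A10i mice A117 and A120 lay above DMSO mouse A127. The A10i mean was 71.3% of the DMSO mean (log2 fold change -0.48 ± 0.199 SE, edgeR unadjusted p = 0.0369, adjusted p = 0.324; exact permutation p = 0.0857, two-sided, n = 4 each). Against sham the rise was 3.44-fold in DMSO and 2.45-fold in A10i in ratios of means (edgeR adjusted p = 0.000508 and 0.00269). Of the mast cell proteases, Cpa3 averaged 1.19 CPM in sham, 0.598 in DMSO and 0.836 with A10i, and Cma1 1.01, 0.692 and 1.43 CPM. No gene of the mast cell and basophil list passed the edgeR test against sham (0 of 6 tested in both comparisons, with 2 of 6 lower at an unadjusted p under 0.05 in DMSO and 0 in A10i), and DESeq2 and limma-voom also called 0. Between A10i and DMSO, 3 of the 6, Cma1 among them, were higher at an unadjusted p under 0.05, and 0 passed. The part of these cells in the Hdc level was not tested. Summed over the list without Gata2 and Kit, which other cells also express and which made most of the sum, levels were 4.305 to 5.18 CPM in sham, 2.05 to 3.98 in DMSO and 3.56 to 7.39 with A10i.

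Per transcript length (FPKM), the order in DMSO mice ran from Clec4d (7.72 ± 3.41, SD, n = 4) and Csf3r (5.41 ± 2.24) through Fpr2 (2.49 ± 0.948), Fpr1 (2.12 ± 0.669), Mcemp1 (1.64 ± 0.563), Clec4e (1.57 ± 0.380), Trem1 (1.53 ± 0.925) and Hdc (1.29 ± 0.239) to Trem3 (0.625 ± 0.346) and Csf3 (0.323 ± 0.487). Neighbours in this order differed by less than the larger of their SDs, other than Csf3r and Fpr2, and Hdc and Trem3. Clec4d also led in A10i mice (4.78 ± 2.49 FPKM), above Csf3r (1.87 ± 0.986 FPKM), whereas in sham mice Hdc (0.375 ± 0.106 FPKM) and Csf3r (0.306 ± 0.125 FPKM) were highest.

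Between A10i and DMSO, all 8 tested genes had negative log2 fold changes, from -1.84 for Fpr1 to -0.48 for Hdc. Their median was -1.58, beside 0.00343 over all 16792 genes tested. At an edgeR adjusted p under 0.01, 0 of the 8 and 0% of all genes passed. At an unadjusted p under 0.05, 7 of 8 were lower, beside 6.73% of all genes, and Clec4d was the exception. Limma-voom also called 0 of the 8, with 7 of 8 at an unadjusted p under 0.05. DESeq2 called 4 of the 10 (Csf3r, Fpr2, Clec4e and Mcemp1), beside 0.714% of 17508 genes called lower. With each of the 8 infarcted mice left out in turn, DESeq2 called 0 genes without DMSO mouse A129 or A10i mouse A117, 1 without A105, A119 or A120, 2 without A128, 5 without A127 and 6 without A116. Over the same omissions, 6 to 8 of the genes were lower at an unadjusted p under 0.05 in edgeR. Of the 8 tested, 5 showed no overlap between the groups, beside 4.4% of genes tested that lay lower in A10i without overlap, and Trem3, which was not tested, made 6 of 10.

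**Figure D3:**
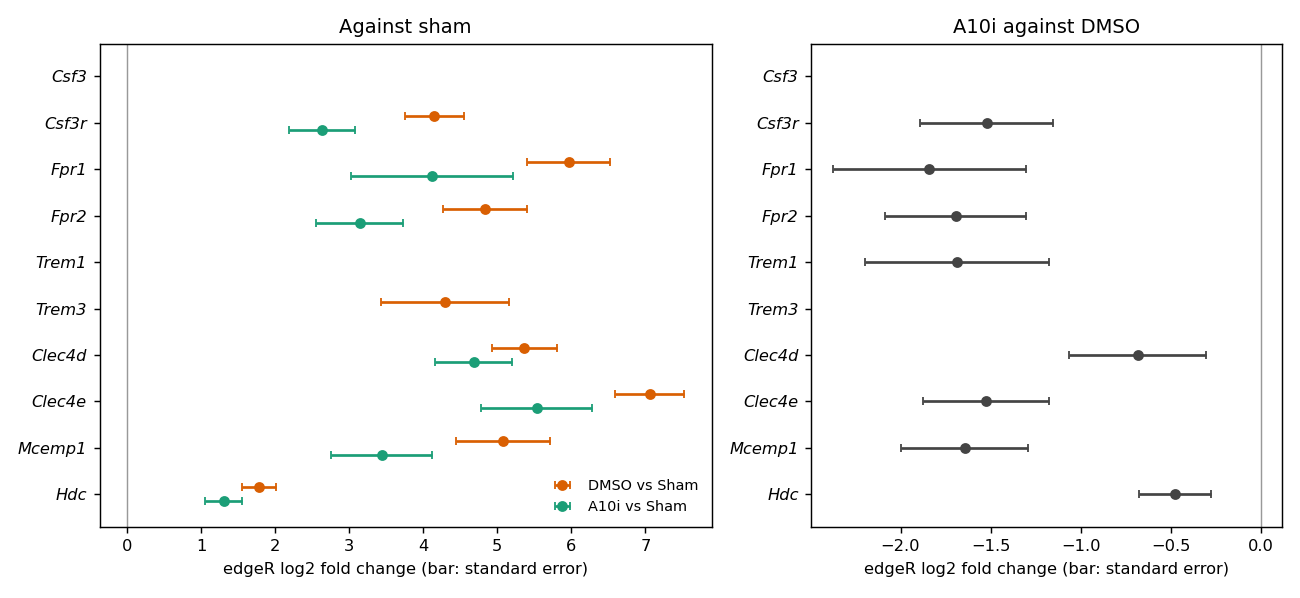
Log2 fold changes from edgeR with their standard errors (bars), for DMSO and A10i against sham (left) and for A10i against DMSO (right). Blank rows are genes that failed the filter on low counts in that comparison, and Trem1 is left out on the left because it had 0 counts in sham. Against sham all values lie above 0, between 1.299 and 7.06, and between A10i and DMSO all lie below 0, between -1.84 and -0.48.

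Markers of neutrophils outside these 10 genes also had lower levels with A10i. S100a8, a calcium-binding protein that neutrophils hold in large amounts, had 18.8 to 32.9 CPM in DMSO and 3.19 to 10.8 CPM in A10i mice. The chemokine receptor Cxcr2 had 4.23 to 14.4 CPM in DMSO and 0.538 to 2.09 CPM in A10i mice. S100a8, S100a9 and Cxcr2 had A10i means of 24.8%, 25.6% and 17.6% of the DMSO means. Of 12 tested genes in the neutrophil list, 0 passed an edgeR adjusted p under 0.01, and their median log2 fold change was -1.61. At an unadjusted p under 0.05, 11 of the 12 were lower, beside 6.73% of all genes. Limma-voom called 0 of the list. DESeq2 called 5 of 17 (Cxcr2, Il1r2, S100a8, S100a9 and Stfa2l1), beside 0.714% of all genes called lower. Gsr, glutathione reductase, is expressed by many cells and made 82.1% of the summed level of that list in sham, 18.3% in DMSO and 34.2% with A10i. Without it the other 17 genes summed to 4.19 to 5.05 CPM in sham, 103.6 to 216.0 in DMSO and 27.1 to 73.8 with A10i. Ly6g, the antigen by which mouse neutrophils are sorted, had 0 counts in sham and 1 to 8 counts in infarcted libraries. Its A10i mean was 57.9% of the DMSO mean, and the groups overlapped. Elane was at 0 in all 11 libraries. The part of cell number in the lower receptor levels was not tested.

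Macrophage markers had higher levels with A10i. All 12 genes of the macrophage list had positive log2 fold changes between A10i and DMSO, and 7 of 12 were higher at an unadjusted p under 0.05, beside 7.1% of all genes, with a median of 0.41 and 0 past the adjusted threshold with edgeR, limma-voom or DESeq2. The list summed to 444.4 to 633.6 CPM in DMSO and 563.8 to 869.8 CPM in A10i mice. The pan-leukocyte gene Ptprc averaged 27.1 ± 9.24 CPM (SD, n = 4) in DMSO and 28.6 ± 10.8 CPM (SD, n = 4) in A10i mice. It was highest in A129 and A116, the mice that were also highest in their groups for Csf3r, Fpr1, Fpr2, Trem1, Trem3, Clec4d, Clec4e and Mcemp1. The monocyte list summed to 536.5 to 1458 CPM in DMSO and 634.5 to 1500 CPM in A10i mice, also highest in A129 and A116. Its median log2 fold change between A10i and DMSO was 0.0177. At an edgeR unadjusted p under 0.05, 2 of its 10 genes were lower, beside 6.73% of all genes, and 0 higher. The neutrophil list, Gsr included, was highest in A105 (252.3 CPM) and A116 (110.3 CPM). The part of monocytes in the receptor levels was not tested.

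**Figure D4:**
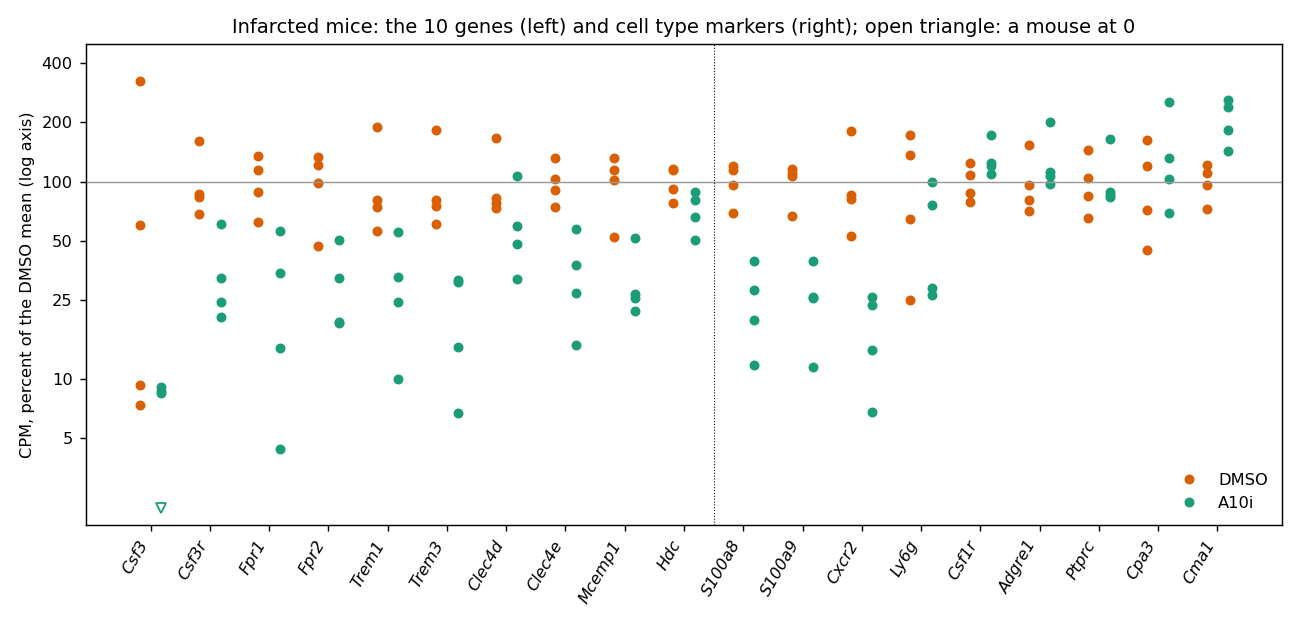
Level of the 10 genes (left of the dotted line) and of markers of neutrophils (S100a8, S100a9, Cxcr2, Ly6g), macrophages (Csf1r, Adgre1), all leukocytes (Ptprc) and mast cells (Cpa3, Cma1) in each infarcted mouse, as a percent of the DMSO mean of that gene on a log axis. Each point is a mouse and the open triangle is a mouse with 0 counts. Means with A10i are 17.6% to 25.6% of DMSO for S100a8, S100a9 and Cxcr2, and 57.9% for Ly6g, which has few counts. They are 34.6% for Csf3r, 61.9% for Clec4d, 131.4% for Csf1r and 206.2% for Cma1.

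Set against the summed neutrophil markers other than Gsr of the same mouse, DMSO and A10i mice overlapped for 9 of the 10 genes. This was computed for the 10 genes only, so no share over all genes can be set beside it. The sum itself averaged 174.7 CPM in DMSO and 55.6 CPM in A10i mice, so any gene lowered less than the sum gains share. Csf3r made 7.53% to 16.9% of that sum in DMSO and 8.72% to 16.1% in A10i mice, and Clec4e 3.01% to 6.81% and 2.94% to 6.10%. Clec4d made 4.19% to 11.01% and 8.24% to 17.9%. Hdc made 3.51% to 6.16% of the sum in DMSO and 7.33% to 15.3% in A10i mice, without overlap. With Gsr in the sum, Csf3r averaged 9.21% in DMSO and 7.81% in A10i mice, and without it 11.5% and 12.3%, and Hdc remained the gene without overlap. These shares were computed after the levels had been seen and were not tested.

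Among other genes of these pathways, calls against sham rested on the number of sham mice. Over all lists, 88 genes outside the 10 were called in DMSO and 76 in A10i. Without S1, S2 or S3 these counts were 45 to 51 and 45 to 46. Of all genes tested, 3858 of 17117 were called in DMSO and 3879 of 16971 in A10i against sham. Of 8 tested colony-stimulating factors and receptors, Csf3r among them, 5 rose in DMSO against sham, beside 12.9% of all genes. The smallest p was that of Csf2rb, the shared beta chain of the GM-CSF receptor (log2 fold change 3.18 ± 0.263 SE, edgeR adjusted p = 0.000107). Csf2, which encodes GM-CSF, had 0 to 5 counts in all libraries, and Csf1, the macrophage growth factor, averaged 74.7 CPM in sham, 63.4 in DMSO and 63.0 with A10i. Among 14 tested genes of G-CSF receptor signalling, 6 rose and 2 fell in DMSO against sham, where 12.9% of all genes rose. Of the 3858 genes called in that comparison, 2215 rose and the others fell. Socs3, the feedback inhibitor of the receptor, averaged 3.55 CPM in sham, 44.9 in DMSO and 21.6 with A10i (A10i against DMSO log2 fold change -1.05 ± 0.268 SE, edgeR adjusted p = 0.147; called by DESeq2). Cebpb, a transcription factor of emergency granulopoiesis, averaged 71.3 ± 8.15 CPM (SD, n = 3) in sham, 101.8 ± 6.44 (SD, n = 4) in DMSO and 71.3 ± 7.82 (SD, n = 4) with A10i, and its adjusted p between A10i and DMSO in edgeR was 0.0802, with a call by DESeq2.

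Of 14 genes of neutrophil survival and death, 6 rose in DMSO against sham, beside 12.9% of all genes, and 3 in A10i, beside 13.7%. The former count was 3 with limma-voom, 3 without A105 or A127, 2 without S1 and 1 without S2 or S3, and the latter 1 without S3. Mcl1, the BCL2-family protein on which neutrophils depend, averaged 286.4 CPM in sham, 295.1 in DMSO and 263.5 with A10i and passed in no comparison. The near-identical copies of the short-lived relative Bcl2a1 cannot be told apart with confidence: from DMSO to A10i, Bcl2a1a averaged 0.914 and 0.459 CPM, Bcl2a1b 2.28 and 2.36 CPM, and Bcl2a1d 0.944 and 0.661 CPM. The list of chemoattractant receptors with annexin A1 also holds Fpr1 and Fpr2. In it, 8 of 10 rose in DMSO and 6 of 10 in A10i against sham, beside 12.9% and 13.7% of all genes. Cxcr2 had the smallest p among those lower with A10i than with DMSO.

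The ITAM adaptors Fcer1g and Tyrobp had close means in the infarcted groups. Fcer1g averaged 5.78 CPM in sham, 23.0 in DMSO and 22.9 with A10i, with a log2 fold change between A10i and DMSO of 0.00235 ± 0.229 (SE). Tyrobp averaged 6.09, 24.8 and 23.9 CPM, with a log2 fold change of -0.04 ± 0.284 (SE). Of 14 genes of this chain, 11 rose against sham in both infarcted groups, beside 12.9% of all genes in DMSO and 13.7% in A10i. Between A10i and DMSO, 0 of the 14 had an unadjusted p under 0.05, beside 6.73% of all genes lower and 7.1% higher. In the TREM list, which also holds Trem1 and Trem3, 10 of 12 rose in DMSO and 7 of 9 in A10i against sham. The shares over all genes were 12.9% and 13.7%. The smallest p in the TREM list was that of Cd300lf in DMSO and of Trem2 in A10i. In the myeloid lectin list, which also holds Clec4d and Clec4e, 7 of 10 rose in both infarcted groups, beside the same shares of all genes. Clec12a, an inhibitory lectin receptor, had the smallest p among lectins higher with A10i (log2 fold change 0.70 ± 0.305 SE, edgeR adjusted p = 0.353). Of 5 tested genes of histamine metabolism, Hdc rose in both infarcted groups. The transporter Slc22a3 passed the threshold in DMSO only, and Hnmt, which inactivates histamine, in A10i only, but both were lower than sham in both groups. For Slc22a3 the log2 fold change was -0.83 ± 0.183 (SE) in DMSO and -0.77 ± 0.195 (SE) in A10i (edgeR adjusted p = 0.00621 and 0.011). For Hnmt it was -0.54 ± 0.212 (SE) and -0.59 ± 0.115 (SE) (edgeR adjusted p = 0.0695 and 0.00309). Between A10i and DMSO the log2 fold changes were 0.058 ± 0.199 (SE) for Slc22a3 and -0.055 ± 0.190 (SE) for Hnmt.

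Over the 8 infarcted mice, the genes whose log2 CPM ran closest to Csf3, each centred on its own mean, were Il6, Zan, Ptx3, Gsta1 and Exoc3l4, with root mean square differences of 0.658 to 0.800 beside a spread of 1.32 in Csf3 itself. Since 83.0% of the DMSO counts of Csf3 came from A128, likeness to it mostly describes a high level in that mouse. All points of this measure share the same 8 libraries, 4 treated and 4 not.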

How the data were processed

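Poly(A) RNA of 11 hearts was made into strand-specific libraries and sequenced as 100-base pairs. Per the labels and the methods of the study, the authors aligned reads to mm10 with GSNAP and counted them on Ensembl genes with featureCounts (2.0.1). The deposited values are raw counts, not normalised. The strand setting of the counting is not given in the sources used here. The 92 spike-in rows were left out. Identifiers of 55154 of the 55421 genes matched a symbol, shared stretches were sought in the transcripts of GENCODE release M21, and exon overlaps in the exons listed in the count table.

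Each pair of groups was tested on its own libraries with edgeR 4.0.16 in R 4.3.3 (filterByExpr, TMM, robust quasi-likelihood F-test, two-sided, Benjamini-Hochberg over all genes tested, threshold 0.01). Alternatives were DESeq2 1.42.0, limma-voom (limma 3.58.1), a joint fit, other normalisations, filters and thresholds, and leaving out each library. DESeq2 fits without a library, the ratios of neighbouring genes and marker sums without Gsr, Gata2 and Kit were added after seeing the data. Single genes were compared between A10i and DMSO on log2 CPM (prior count 2) with exact permutation tests. Intervals and the floor of 3 counts cover counting error only. The fits across all genes were tested on simulated data.

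The 10 genes and the 16 lists were chosen with earlier results of these data known. Named besides the 10 genes were, for each list and comparison, the genes with the smallest p among those higher and those lower, defining cell type markers, and the 5 genes most like Csf3 (those for Csf3r are not reported here). Tyrobp, Csf2, Elane, Fpr3, Il1r2, Stfa2l1, Gsr, Gata2, Bcl2a1b and Bcl2a1d were named after their values were seen. All sham, DMSO and A10i libraries were separate mice, and no 2 libraries of a group agreed within counting noise. The depth of 21702623 to 29511768 counts leaves genes under 1 CPM with few counts.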

Additional observations from a re-analysis of the deposited data

Results flagged for a closer look

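A mouse stood apart from the other 3 of its group in 5 of 20 sets of 4 values. Its gap to the nearest value, as a share of the range of the group, was above Dixon's 95% critical value for 4 samples. Chance gives this in about 1 in 20 groups of independent, normally distributed values. The sets here were CPM of genes in the same mice, some with few counts, so no excess over chance can be read from the 5. Csf3 in DMSO mouse A128 was at 1.48 CPM, beside 0.0336 to 0.273 CPM in the others. Csf3 in A10i mouse A120 was at 0 CPM, beside 0.0386 to 0.0414 CPM, which is a difference of 1 count. Trem3 in DMSO mouse A129 was at 1.13 CPM, beside 0.381 to 0.504 CPM. Clec4d in DMSO mouse A129 was at 20.5 CPM, beside 9.06 to 10.2 CPM. Mcemp1 in A10i mouse A116 was at 1.26 CPM, beside 0.538 to 0.656 CPM. Mice A129 and A116 were also the highest of their groups in Ptprc (39.4 and 44.8 CPM).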

How the results depend on the processing

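No paired analysis was possible because the labels give the groups compared no shared replicate numbers. No value of the 10 genes changed direction in any alternative. In A10i against DMSO, the 0 genes called by edgeR became 4 with DESeq2 and 0 to 6 with DESeq2 and a mouse left out (1 without A105, A119 or A120, 2 without A128, 5 without A127, 6 without A116, and 0 without A117 or A129), but stayed 0 in 8 edgeR fits without a mouse. The 7 genes lower at an unadjusted p under 0.05 became 6 to 8. The 7 called in A10i against sham became 2 to 8 without a mouse (2 without S2 or S3), and the 9 called in DMSO against sham became 8 or 9. Of the lists' genes outside the 10, 88 were called in DMSO against sham (45 to 87 without a mouse), 76 in A10i against sham (45 to 84) and 0 in A10i against DMSO (8 with DESeq2, 1 with no filter on low counts, and 0 without a mouse). The 6 genes with an exact p of 0.0286 were 6 with a prior count of 0.5.

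Without TMM, on library size alone, the median change of all genes on the log2 scale moved from 0.00211 to 0.21 in DMSO and from -0.00536 to 0.18 in A10i against sham, and the share of higher among called genes from 57.4% to 82.5% and from 60.1% to 85.6%. The Clec4e to Clec4d difference lay between -1.05 and -0.78 without a mouse, and missed an exact p of 0.05 without A119. Csf3 and Trem3 failed edgeR's filter between A10i and DMSO, and DESeq2 called neither.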
